A study of Homo sapiens with 29 samples.

Results

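GDF15 encodes a secreted cytokine, a distant member of the TGF-beta superfamily. MIR3189 is a microRNA gene that lies inside the GDF15 gene on the same strand. Both were followed here in HepG2, a human liver cancer cell line, treated with the herb Cratoxylum cochinchinense Lour. (abbreviated CCL in the labels) or left untreated. They are 2 of 14884 genes with a named probe set, and the array's probe table gives each of them 1 probe set. The pair was chosen by its difference between CCL-treated and untreated arrays. Both genes passed the filter of log2 5 on at least 2 arrays, GDF15 on all 29 arrays and MIR3189 on 24. The microRNA gene was 1 of 134 microRNA genes that passed it, of 1072 with a named probe set.

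CCL-treated cells were harvested at 6, 12, 18, 24 and 48 h on 3, 3, 3, 2 and 2 arrays. Untreated cells were harvested at 0, 6, 12, 18, 24 and 48 h on 2, 3, 3, 2, 3 and 3 arrays. All groups are of the same cell line, and the labels name no genetic change. The labels give no dose, preparation or vehicle, so that an effect of CCL cannot be told apart from one of a solvent or of handling. They number the arrays of each group as sets 1 to 3 without saying what a set is, and do not say whether the arrays of a group came from separate cultures. P-values therefore measure only the spread between these arrays, which may be technical.

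GDF15 is released by many cell types under stress. It acts on a hindbrain receptor made of GFRAL and the kinase RET, through which it lowers appetite. Its transcription is known to be raised by ATF4 and CHOP (gene DDIT3), which act in the integrated stress response, and by EGR1. A microRNA is cut from a hairpin in a longer transcript into mature strands of which the seed, near the 5′ end, pairs with target messenger RNAs.

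RefSeq (GRCh38.p14) places GDF15 at chr19:18386158-18389176 and MIR3189 at chr19:18386562-18386634, 404 bases after the start of GDF15, both on the plus strand. The RefSeq hairpin is shown because it is the whole annotated RNA of the smaller gene, with its mature arms in capitals. The mature strands follow with the seed, bases 2 to 8, in capitals.
MIR3189 hairpin: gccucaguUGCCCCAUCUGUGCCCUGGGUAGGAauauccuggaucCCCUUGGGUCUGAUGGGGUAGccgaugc
hsa-miR-3189-5p: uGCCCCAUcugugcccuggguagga
hsa-miR-3189-3p: cCCUUGGGucugaugggguag
The strands have 25 and 21 bases and their seeds differ from each other. Of the 2370 human mature microRNAs in the RefSeq table, 0 others carry the seed of either strand. The hairpin has 73 bases. The probe set named MIR3189 was read from labelled total RNA, and whether it measures the hairpin, its precursor or unspliced GDF15 RNA was not tested.

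The promoter of GDF15 is shown, since genes of its known regulators are compared further on, from 250 bases before the start to 50 after it (RefSeq, GRCh38.p14, chr19:18385908-18386207, plus strand). Capitals mark matches to the motifs searched on both strands.
GDF15 promoter: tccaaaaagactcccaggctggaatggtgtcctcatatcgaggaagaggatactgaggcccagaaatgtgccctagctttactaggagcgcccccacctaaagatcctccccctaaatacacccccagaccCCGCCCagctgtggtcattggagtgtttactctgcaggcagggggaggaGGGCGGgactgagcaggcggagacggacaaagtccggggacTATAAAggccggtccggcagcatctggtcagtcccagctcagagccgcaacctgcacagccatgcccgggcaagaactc
A TATA box (TATAAA) lies 29 to 24 bases before the start, and 11.5% of 35116 RefSeq promoter windows of the same length hold one. The GC box (GGGCGG), the letters read by SP1 and KLF factors, occurs 2 times, 119 to 114 bases before the start on the minus strand and 70 to 65 bases before it on the plus strand. It occurs in 45% of all promoter windows. The C/EBP-ATF element of ATF4 and CHOP (TGATGNAA, in 3.62% of windows), the AP-1 element (TGANTCA, 7.71%) and an EGR1 element (GCGNGGGCG, 9.43%) had 0 matches each in these 300 bases, and none of the matches overlap. These are matches of letters, and binding was not measured.

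GDF15 was higher in CCL-treated cells at every time. At 6 h it measured 11.05, 11.17 and 11.16 (log2, sets 1, 2 and 3) in CCL-treated cells, against 9.69, 9.51 and 9.64 in untreated cells. At 12 h it measured 11.23, 11.07 and 11.40 in CCL-treated cells, against 8.91, 8.85 and 8.75 in untreated cells. At 18 h it measured 11.02, 10.90 and 11.74 in CCL-treated cells, against 8.74 and 9.07 (sets 1 and 3) in untreated cells. The arms did not overlap at 6, 12 or 18 h, with CCL higher, as for 6.23%, 11.8% and 32.5% of the genes tested, and the 18 h array of CCL set 3 stood highest of its group. At 24 h the values were 11.85 and 10.89 (sets 1 and 2) in CCL-treated cells, against 8.38, 8.98 and 9.38 in untreated cells. At 48 h they were 12.03 and 10.91 in CCL-treated cells, against 9.27, 9.20 and 9.34 in untreated cells. The arms did not overlap at 24 and 48 h either, as for 13.9% and 10.3% of genes, while the CCL arrays of one time lay further from each other than before.

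**Figure D1:**
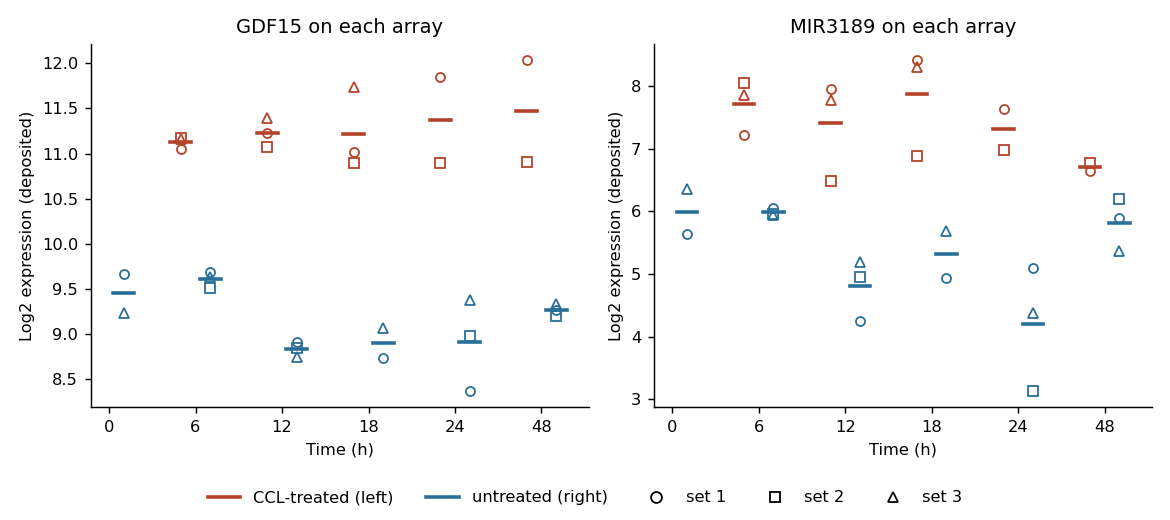
Log2 expression of GDF15 (left panel) and MIR3189 (right panel) on each of 29 arrays against time in hours, with CCL-treated cells on the left and untreated cells on the right of each time. Times are evenly spaced on the axis, not to scale. Marker shapes give the set, horizontal bars the group mean. The 13 CCL arrays lie at 10.89 to 12.03 for GDF15, all above the 16 untreated arrays at 8.38 to 9.69.

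The difference between the arms is the contrast by which both genes were chosen, so it is described here with its error and with no test. In RNA of whole cultures, more cells that express a gene and more of its RNA per cell cannot be told apart. CCL minus untreated was 1.51 ± 0.28 (log2, SE) for GDF15 at 6 h, a 2.86-fold difference, and 2.39 ± 0.28 or 5.25-fold at 12 h. It was 2.32 ± 0.31 at 18 h, 2.46 ± 0.31 at 24 h and 2.20 ± 0.31 at 48 h. Averaged over the 5 times it was 2.18 ± 0.13, or 4.52-fold, with group means of 11.28 in CCL-treated and 9.11 in untreated cells. By size this was the difference ranked 7 of 6529 genes from the top. All 13 CCL arrays lay above all 16 untreated arrays for GDF15 and for MIR3189, as they did for 0.934% of the genes tested. The contrast chose both genes, so nothing is read from that count.

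MIR3189 was also higher with CCL at every time, by an amount that varied more. At 6 h it measured 7.23, 8.05 and 7.86 (log2, sets 1, 2 and 3) in CCL-treated cells, against 6.05, 5.97 and 5.94 in untreated cells. At 12 h it measured 7.96, 6.49 and 7.78 in CCL-treated cells, against 4.25, 4.96 and 5.20 in untreated cells. At 18 h it measured 8.41, 6.89 and 8.32 in CCL-treated cells, against 4.94 and 5.69 (sets 1 and 3) in untreated cells. Set 2 of the CCL arrays was the lowest at 12 and 18 h and the highest at 6 h. The arms did not overlap at 6, 12 or 18 h, as for 6.23%, 11.8% and 32.5% of the genes tested. At 24 h the values were 7.64 and 6.99 in CCL-treated cells, against 5.10, 3.14 and 4.38 in untreated cells. At 48 h they were 6.64 and 6.78 in CCL-treated cells, against 5.90, 6.20 and 5.37 in untreated cells. Nor did they overlap at 24 and 48 h, as for 13.9% and 10.3% of genes. The gap between the arms was narrowest at 48 h, where 0.45 separated the lowest CCL array from the highest untreated one. No detection call was used here, so whether the lowest untreated values lie above background is not known.

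For MIR3189, CCL minus untreated was 1.73 ± 0.44 at 6 h, 2.61 ± 0.44 at 12 h, 2.55 ± 0.49 at 18 h and 3.11 ± 0.49 at 24 h (log2, SE). At 48 h it was 0.89 ± 0.49. Over the 5 times it averaged 2.18 ± 0.21, the difference ranked 6 of 6529 genes, with means of 7.40 in CCL-treated and 5.23 in untreated cells. The difference of MIR3189 was larger than that of GDF15 by 0.21 ± 0.52 at 6 h, 0.21 ± 0.52 at 12 h, 0.24 ± 0.58 at 18 h and 0.66 ± 0.58 at 24 h. At 48 h the difference of MIR3189 minus that of GDF15 was -1.31 ± 0.58. These errors treat the 2 probe sets as independent although they share arrays. At 18 h the median of all genes tested was itself 0.41 higher with CCL. After quantile normalization, which removes that shift, the 18 h difference was 2.09 ± 0.27 for GDF15 and 2.14 ± 0.51 for MIR3189.

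**Figure D2:**
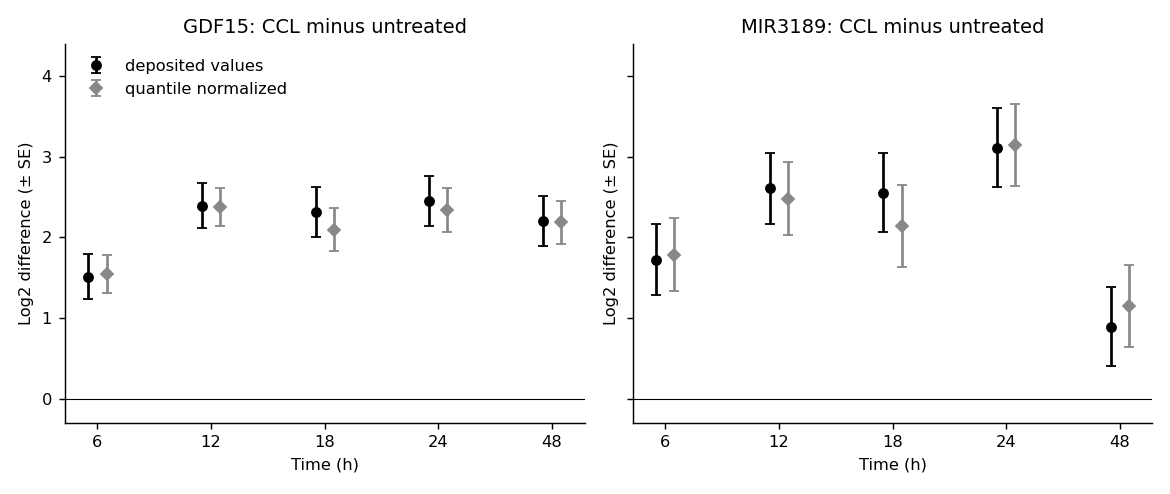
CCL minus untreated (log2 difference of group means, bars ± SE) for GDF15 (left) and MIR3189 (right) against time in hours. Circles are deposited values, diamonds quantile-normalized ones. Times are evenly spaced, not to scale. GDF15 is lowest at 6 h (1.51) and MIR3189 at 48 h (0.89).

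GDF15 varied about as much between arrays of a group as other genes, and MIR3189 varied more. The pooled SD within groups was 0.35 for GDF15 and 0.61 for MIR3189, against a median of 0.32 over the genes tested. It was lower than that of MIR3189 in 97.2% of genes. In treated cells GDF15 ran between 10.89 and 12.03 with a median of 11.16, and in untreated cells between 8.38 and 9.69 with a median of 9.22. MIR3189 ran between 6.49 and 8.41 with a median of 7.64 in treated cells, and between 3.14 and 6.36 with a median of 5.50 in untreated cells.

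In treated cells, the late arrays of set 1 held more GDF15 than those of set 2. CCL set 1 minus set 2 was 0.95 at 24 h and 1.12 at 48 h for GDF15 (log2), while the median of all genes tested was -0.26 and -0.46 in the same pairs of arrays. After quantile normalization these GDF15 differences were 0.89 and 1.05. For MIR3189 they were 0.66 at 24 h and -0.14 at 48 h, and 0.90 and 0.30 after quantile normalization. With 2 arrays a group these are single differences with no test, and no CCL array of set 3 at 24 or 48 h was analysed here.

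Ordered by mean level, the groups of GDF15 ran from CCL 48 h (11.47 ± 0.79, SD, n = 2) through CCL 24 h (11.37 ± 0.67, n = 2), 12 h (11.23 ± 0.16, n = 3) and 18 h (11.22 ± 0.45, n = 3) to 6 h (11.13 ± 0.07, n = 3). Untreated 6 h (9.61 ± 0.09, n = 3), 0 h (9.45 ± 0.31, n = 2), 48 h (9.27 ± 0.07, n = 3), 24 h (8.91 ± 0.51, n = 3), 18 h (8.90 ± 0.23, n = 2) and 12 h (8.84 ± 0.08, n = 3) followed. Neighbours in this order overlapped in their arrays, with the step of 1.51 from CCL 6 h to untreated 6 h as the exception. For MIR3189 the order was CCL 18 h (7.87 ± 0.86), 6 h (7.71 ± 0.43), 12 h (7.41 ± 0.81), 24 h (7.32 ± 0.46) and 48 h (6.71 ± 0.10), then untreated 0 h (6.00 ± 0.51), 6 h (5.98 ± 0.06), 48 h (5.82 ± 0.42), 18 h (5.32 ± 0.53), 12 h (4.80 ± 0.50) and 24 h (4.20 ± 0.99). Here CCL 48 h lay wholly below CCL 24 h, as for 13.3% of the genes tested, and wholly above untreated 0 h, as for 14.9%. The other neighbours overlapped.

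The series asks how genes change among time points, and time within 1 arm is not the contrast that chose the members, so it was tested. In untreated cells at 0 h GDF15 measured 9.67 and 9.23 (sets 1 and 3) and MIR3189 5.64 and 6.36. GDF15 at 6 h differed from 0 h by 0.16 ± 0.31 (log2, SE), at 12 h by -0.61 ± 0.31, at 18 h by -0.55 ± 0.34, at 24 h by -0.54 ± 0.31 and at 48 h by -0.18 ± 0.31. By limma none of these passed the threshold, the lowest adjusted p being 0.436 at 12 h. The 12 h and 18 h arrays all lay below both 0 h arrays, as for 37.7% and 21.5% of the genes tested, and the other times overlapped with 0 h. The median of all genes was -0.20 at 12 h, -0.26 at 18 h and -0.11 at 24 h in these contrasts. The untreated 12 h arrays had array medians of 2.51 to 2.54, against 2.98 and 3.07 at 0 h. After quantile normalization GDF15 differed by -0.51 at 12 h, -0.34 at 18 h and -0.42 at 24 h.

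For MIR3189 in untreated cells no time differed from 0 h by an amount that passed the threshold either. It differed from 0 h by -0.01 ± 0.49 at 6 h, -1.20 ± 0.49 at 12 h, -0.68 ± 0.54 at 18 h, -1.80 ± 0.49 at 24 h and -0.18 ± 0.49 at 48 h. The adjusted p was 0.296 at 12 h and 0.441 at 24 h, with unadjusted p of 0.0221 and 0.00116. All arrays of 12 h and 24 h lay below both 0 h arrays, as for 37.7% and 9.36% of genes. After quantile normalization the differences were -0.78 at 12 h and -1.65 at 24 h. Few genes were called in these contrasts: 0.23% at 12 h, and 0 of 6529 at 6, 18, 24 and 48 h, where 46, 694, 320 and 82 genes had an unadjusted p under 0.05 by limma.

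Within CCL-treated cells, neither gene showed a change after 6 h that passed the threshold. For GDF15, the later times differed from CCL 6 h by 0.10 ± 0.28 at 12 h, 0.09 ± 0.28 at 18 h, 0.24 ± 0.31 at 24 h and 0.34 ± 0.31 at 48 h (log2, SE; adjusted p 0.635 or more). The sign at 18, 24 and 48 h hung on 1 array each. It was -0.17 without CCL 18 h set 3, -0.24 without CCL 24 h set 1 and -0.22 without CCL 48 h set 1, and the 18 h sign also turned after median centring (-0.13). MIR3189 differed from CCL 6 h by -0.30 ± 0.44 at 12 h, 0.16 ± 0.44 at 18 h, -0.39 ± 0.49 at 24 h and -0.998 ± 0.49 at 48 h, with an adjusted p of 0.325 at 48 h by limma. Both CCL 48 h arrays lay below all 3 CCL 6 h arrays for MIR3189, as for 14.4% of genes. The 12 h sign turned without CCL 12 h set 2 (0.16), and the 18 h sign without CCL 6 h set 1 (-0.08), CCL 18 h set 1 (-0.11) or set 3 (-0.06). Median centring turned both (0.06 at 12 h and -0.06 at 18 h). In these contrasts 1.3%, 0.0306%, 0.0306% and 1.07% of genes were called at 12, 18, 24 and 48 h.

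Array by array, GDF15 and MIR3189 were loosely related within an arm. Since the arms form separate clusters, the relation is given within each. Pearson's r of GDF15 with MIR3189 was 0.151 over the 13 CCL arrays and 0.447 over the 16 untreated arrays (Spearman's rho 0.198 and 0.526). After subtracting each group's mean it was 0.0805 over the 29 arrays (rho 0.0153). These are descriptions, since arrays of one time share culture time and processing. The array with the highest GDF15, CCL 48 h set 1 at 12.03, had a MIR3189 value of 6.64, among the lower treated ones.

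**Figure D3:**
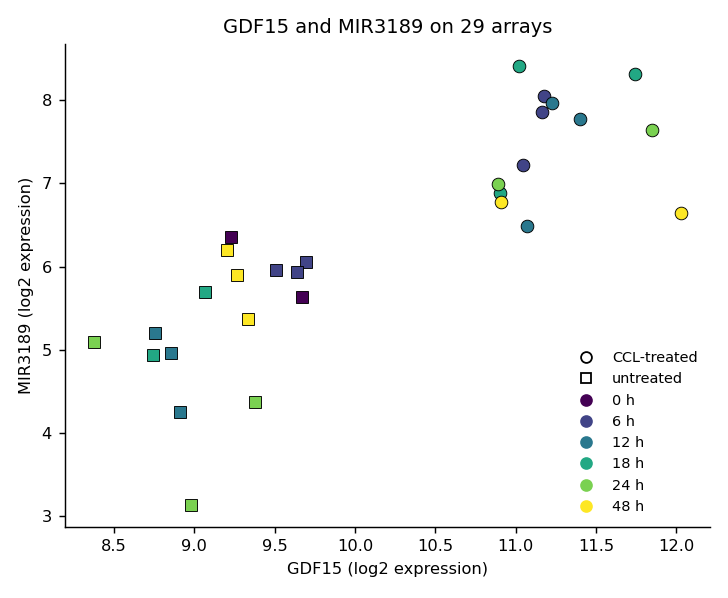
MIR3189 against GDF15 (both log2 expression) on 29 arrays, circles for CCL-treated and squares for untreated cells, coloured by time. The arms form separate clouds. Within the CCL cloud (r = 0.151, 13 arrays) and the untreated cloud (r = 0.447, 16 arrays) the values are loosely related.

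Genes whose pattern was most like that of GDF15 over the 29 arrays were IGFBP1 (Pearson's r = 0.967), encoding a hepatic binding protein of insulin-like growth factors, BAIAP2L1 (0.962), encoding an actin regulator, PXDC1 (0.960) and the early response gene IER3 (0.959). LIF (0.950) and IL11 (0.942), cytokines of the interleukin-6 family, JAG1 (0.948), a Notch ligand, and AXL (0.939), a receptor kinase, completed the 8. After subtracting the group means, r ran from 0.392 (AXL) to 0.871 (BAIAP2L1) among these 8. MIR3189 ranked 96 of 6528 other genes with r = 0.836. The lowest were KIF20A (-0.827), a mitotic kinesin, DHRS2 (-0.833) and DHRS4L2 (-0.848), both of the short-chain dehydrogenase family. All arrays enter these values, so they include the difference between the arms by which GDF15 was chosen. With quantile-normalized values 7 of the 8 genes stayed in the first 8, and with Spearman's rho or the 11 group means 5 did.

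The genes known to regulate GDF15 transcription were next compared between the arms over the mean of the 5 times, in which limma called 24.6% of all genes, 13.6% higher and 11% lower with CCL. Of 29 on the list, 26 had a named probe set and 22 were tested. ATF3, ERN1 and FOS reached the filter on fewer than 2 untreated arrays, so that they entered the test through the CCL arm. Of the 19 others, 8 rose, 1 fell and 10 were not called, with a median difference of 0.13 (log2). Of all 5892 genes that met the filter on 2 or more arrays of each arm, a count made after the data were seen, 13.1% rose and 10.9% fell, with a median of 0.01. The list was chosen with earlier results of these data known, so the counts are set side by side as a description. KLF5 rose by 1.09 ± 0.19 (SE) and KLF6 by 1.06 ± 0.14, both zinc finger factors that bind GC-rich promoters. SP1 (-0.05 ± 0.11) and SP3 (0.02 ± 0.11) were not called and KLF4 lay below the filter, all named after their values were seen. JUN, an AP-1 subunit, rose by 1.01 ± 0.17. EGR1 rose by 0.93 ± 0.20 (adjusted p = 0.00133), with means of 8.53 in CCL-treated and 7.59 in untreated cells. ATF4 rose by 0.44 ± 0.13 (adjusted p = 0.0179), which missed the threshold without untreated 18 h set 1 (adjusted p = 0.0597) or CCL 24 h set 1 (0.0642). ERN1, encoding the endoplasmic reticulum stress sensor IRE1, differed by 1.08 ± 0.15 and was above the filter on 8 CCL arrays and 1 untreated array. ATF3, an ATF4 target that is itself a transcription factor, differed by 0.85 ± 0.23 and was above it on 4 CCL arrays and 0 untreated arrays. EIF2AK4, encoding the amino acid sensing kinase GCN2, fell by 0.34 ± 0.12, and this gene, named after its values were seen, kept its call in 19 of 29 fits with 1 array left out (adjusted p up to 0.141). DDIT3 lay below the filter, with means of 3.69 in CCL-treated and 3.02 in untreated cells.

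The differences of EGR1 and ATF4 at single times are set beside those of GDF15. For EGR1, CCL minus untreated was 2.11 ± 0.42 at 6 h, 1.18 ± 0.42 at 12 h, 1.16 ± 0.47 at 18 h, 0.45 ± 0.47 at 24 h and -0.22 ± 0.47 at 48 h (log2, SE). For ATF4 it was -0.13 ± 0.28, 0.43 ± 0.28, 1.45 ± 0.31, 0.46 ± 0.31 and -0.02 ± 0.31 at the same times. The values for GDF15 were 1.51, 2.39, 2.32, 2.46 and 2.20. The highest value was at 6 h for EGR1 and at 18 h for ATF4, while the 12 to 48 h values of GDF15 lay within 1 SE of each other. After quantile normalization ATF4 at 18 h was 1.06 and EGR1 0.78, and GDF15 was 2.38 at 12 h and 2.34 at 24 h. Whether these time courses differ from one another was not tested.

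Targets of ATF4 and CHOP other than GDF15, a list that shares ATF3 and DDIT3 with the regulators, held more genes that rose than fell. Of 40 on the list, 25 had a named probe set and 23 were tested. Without ATF3, 14 of 22 rose, 1 fell and 7 were not called, with a median difference of 0.45. Of the 5892 genes above the filter in both arms, 13.1% rose and 10.9% fell. The list was chosen with earlier results of these data known, so its share is a description and no test of enrichment. STC2, encoding a secreted glycoprotein, rose by 1.21 ± 0.13 (log2, SE, adjusted p = 1.83e-07), TRIB3, a pseudokinase, by 0.68 ± 0.13, SARS1, a seryl-tRNA synthetase, by 0.59 ± 0.12 and SESN2, an inhibitor of mTORC1 signalling, by 0.56 ± 0.10. PSPH, the last enzyme of serine synthesis, fell by 0.49 ± 0.11. At 6, 12, 18, 24 and 48 h, 0, 1, 14, 1 and 0 of the 23 were called higher. The shares of all genes tested were 0.276%, 1.04%, 12.3%, 2.54% and 1.33%. The median difference of the list was -0.11 at 6 h, 1.19 at 18 h and 0.36 at 48 h. By quantile normalization the list's counts were 0, 1, 7, 4 and 9, and by median centring 0, 1, 5, 5 and 3. Without CCL 18 h set 3, the array with the highest median (3.39), the 18 h count was 6. The array with the lowest median (2.29) was untreated 18 h set 1, in a group of 2. The 18 h count of 14 thus depends on the processing. NUPR1 and INHBE were not analysed here.

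**Figure D4:**
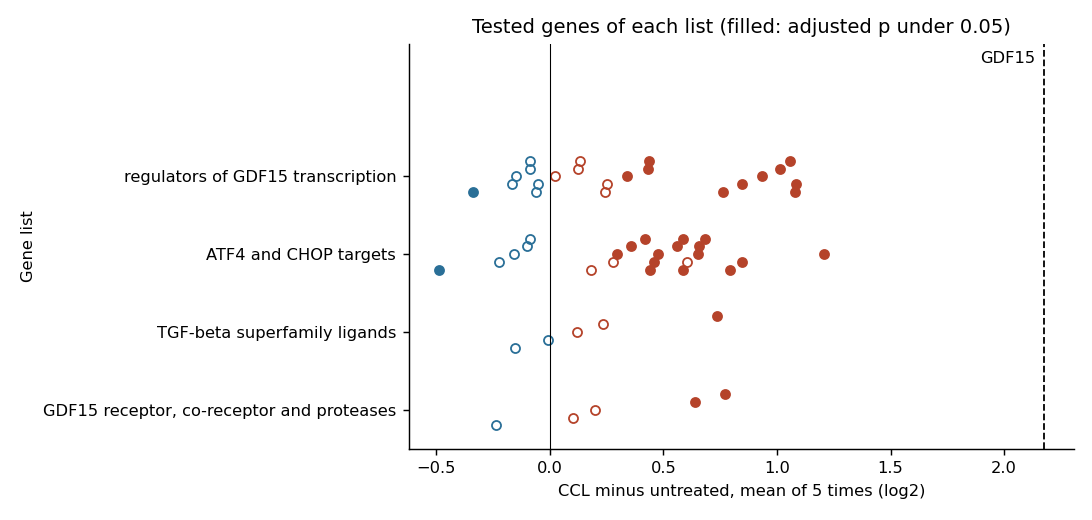
CCL minus untreated, averaged over 5 times (log2), for each tested gene of 4 lists, filled where called and open otherwise, red above 0 and blue below. The dashed line marks GDF15 at 2.18. The filled points include genes above the filter in the CCL arm alone (ATF3, PCSK5, MMP14, BMP6). They also include ERN1, above it on 8 CCL arrays and 1 untreated array. Of regulators above it in both arms 8 were higher and 1 lower, and of ATF4 and CHOP targets 14 and 1. Of all genes above it in both arms 13.1% were higher and 10.9% lower.

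The receptor of GDF15 was not measured above the filter. GFRAL averaged 2.05 in CCL-treated and 2.07 in untreated cells (log2) and RET 2.85 in CCL-treated and 2.58 in untreated cells. Of 8 genes of the receptor complex and of proteases and sorting proteins tied to GDF15 or its family, 5 were tested, and 2 of these met the filter in both arms, of which 0 rose and 0 fell. Among all genes that met it in both arms 13.1% rose and 10.9% fell. Nothing is read from counts this small, here or for the ligands below. PCSK5, a proprotein convertase, differed by 0.77 ± 0.13 and MMP14, a membrane metalloprotease that cuts GFRAL, by 0.64 ± 0.13 (log2, SE). Each was above the filter on 2 CCL arrays and 0 untreated arrays, so it entered the test only through the arm where it was high and is not counted as a rise. FURIN, a convertase of many TGF-beta family precursors, was not called (0.20 ± 0.14), nor were the convertase genes PCSK6 (-0.24 ± 0.09) and PCSK7 (0.10 ± 0.13). PCSK6 would be called lower without untreated 18 h set 1, CCL 6 h set 2, CCL 18 h set 3 or CCL 24 h set 1 (adjusted p down to 0.012) and after quantile normalization (0.0176). Among 32 other ligands of the TGF-beta superfamily, 24 had a named probe set and 5 passed the filter, 4 of them in both arms. BMP6, a regulator of iron metabolism, differed by 0.73 ± 0.21, and it too was above the filter on 2 CCL arrays and 0 untreated arrays. GDF1 (0.23 ± 0.10), GDF7 (-0.15 ± 0.10), BMP8A (0.12 ± 0.18) and BMP4 (-0.01 ± 0.12) were not called. These 4 and the convertase pair were chosen for naming after their values were seen, to complete the tested genes.

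Genes around GDF15 on chromosome 19 were compared between the arms too. GDF15 and MIR3189 were chosen by this difference, so nothing is read from the smaller differences of their neighbours. Of the 6 nearest named genes on either side, 8 were tested. Of the 7 that met the filter in both arms, 2 rose and 0 fell, with a median difference of 0.03 (log2). Of all genes that met it in both arms, 13.1% rose and 10.9% fell. JUND, an AP-1 subunit whose start lies at -106.5 kb from that of GDF15, rose by 0.85 ± 0.11 (SE). KXD1, of a complex that positions lysosomes, rose by 0.38 ± 0.12. ELL, a transcription elongation factor 56.5 kb after GDF15, differed by 0.68 ± 0.14 and was above the filter on 3 CCL arrays and 0 untreated arrays. The KXD1 call was lost without CCL 24 h set 1 or CCL 48 h set 1 (adjusted p = 0.0549 and 0.0771). SSBP4, the nearest tested gene at 16.57 kb, differed by 0.03 ± 0.10 (-0.015 after median centring), ISYNA1 by -0.24 ± 0.14, MAST3 by 0.20 ± 0.13, MPV17L2 by -0.09 ± 0.09 and REX1BD by -0.31 ± 0.12, none of them called. REX1BD would be called lower in 6 of 29 fits with 1 array left out (without set 3 of untreated 18, 24 or 48 h, or set 2 of CCL 6, 24 or 48 h, adjusted p down to 0.0116), by median centring (0.0298) and with set as a block (-0.37, adjusted p = 0.0102), and ISYNA1 without CCL 48 h set 2 (0.00665). LRRC25, the closest named gene at 4.979 kb, lay below the filter.

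**Figure D5:**
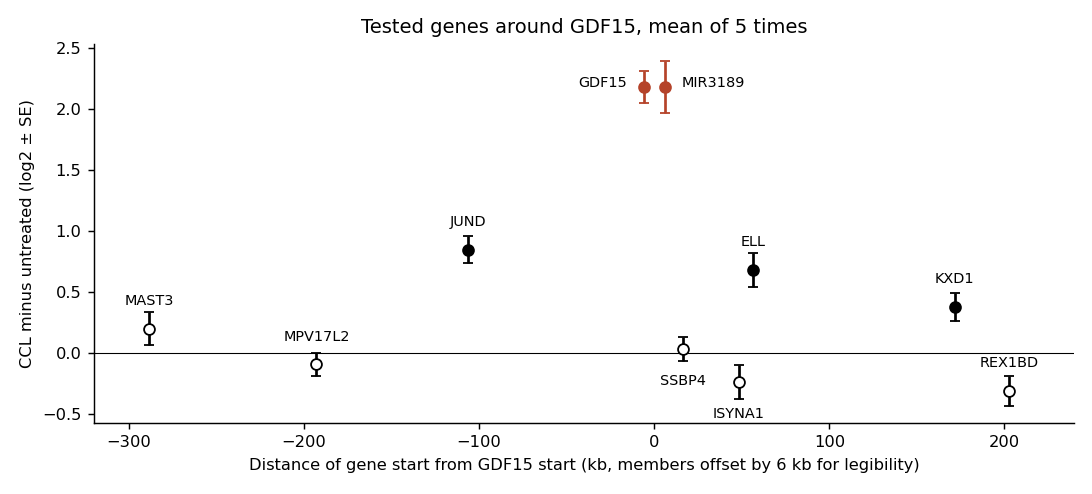
CCL minus untreated, averaged over 5 times (log2, bars ± SE), against the distance of each gene's start from that of GDF15 in kb. Filled black points were called (JUND, KXD1 and ELL, the last above the filter in the CCL arm alone), open ones were not, and red points are GDF15 and MIR3189 at 2.18. The members are drawn 6 kb to either side of 0 so that both can be seen.

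The cells carried the markers of their line. All 8 hepatocyte markers with a named probe set were tested, and 0 rose and 2 fell, TTR by 0.43 ± 0.13 and APOA1 by 0.39 ± 0.14. All 8 met the filter in both arms, and among the 5892 genes that did so 13.1% rose and 10.9% fell. Leaving out 1 array, TTR missed the threshold without untreated 18 h set 3 (adjusted p = 0.0605) and APOA1 in 16 of 29 fits (up to 0.104). ALB averaged 11.90 in CCL-treated and 11.96 in untreated cells (log2) and AFP 10.64 in CCL-treated and 10.78 in untreated cells, both named after their values were seen. GDF15 is also made by macrophages. Of 5 leukocyte and macrophage markers with a named probe set, CD68 rose by 1.09 ± 0.12, LYZ was not called (0.01 ± 0.08), and CD14 and CSF1R lay below the filter. LAPTM5 differed by 1.01 ± 0.12 and was above the filter on 6 CCL arrays and 0 untreated arrays. The mean of these 5 ran from 5.7 to 7.0 on CCL arrays and from 5.44 to 6.11 on untreated arrays, and their sum of linear values from 1943 to 3001 and from 1597 to 2311. Their part in the GDF15 result was not tested. No fibroblast or endothelial marker with a named probe set (3 of each) passed the filter.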

How the data were processed

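Labelled RNA of HepG2 cells was read on 29 Affymetrix arrays. The authors deposited log2 expression values for each probe set. Per the submitters' processing notes these come from RMA in Affymetrix Expression Console 1.1. Medians over all probe sets ran from 2.29 to 3.39 between arrays, so RMA did not equalize all arrays together, and which were processed together is not given in the sources used here. No detection or raw intensity values were used, so depth is unknown, and precision is limited by how many arrays each group has.

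Of 53617 probe sets, 16098 had 1 gene symbol, 0 had several and 37519 had none in the probe table. All 16098 were matched by gene ID to RefSeq (GRCh38.p14), giving 14884 genes, each taken as the probe set with the highest mean. Genes that exceeded log2 5 on 2 or more arrays, 6529 in all, were fitted with limma 3.58.1 in R 4.3.3 (lmFit, eBayes, 1 mean per group, all 29 arrays). Two-sided p-values were adjusted within each comparison across all 6529 genes (Benjamini-Hochberg). An adjusted p under 0.05 counts as a call, and rise or fall is written only of calls. The model was also run on simulated data with independent noise and no shift between arrays. The deposited arrays differ in their medians, so nothing is read from that run. Errors are standard errors (SE) of this model unless given as SD.

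The genes described and the lists were chosen with earlier results of these data known. A further list and 1 regulator gene are not reported here. From each list, up to 5 called genes with the smallest p over the 5 times were named, with GFRAL, RET, FURIN, ATF4, DDIT3, ATF3, EGR1, NUPR1 and INHBE whatever they showed, the 6 nearest named genes on either side of GDF15, and the 8 genes most and 3 least correlated with it. Alternatives were quantile normalization, median centring, set number as a block, the compared arrays alone, a filter of log2 4 or none, and each array left out in turn.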

Additional observations from a re-analysis of the deposited data

How the results depend on the processing

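All 30 values of GDF15 and MIR3189 were recomputed under the alternatives, 1050 times in all, and CCL minus untreated was above 0 in each of 420, a direction that the choice of the genes fixes. No time contrast within an arm gained a call. By median centring GDF15 at 18 h was higher by 1.84 (main 2.32). Leaving out 1 array, GDF15 was higher by 1.98 to 2.93 at 24 h, the ends set by the CCL 24 h arrays, and by 1.64 to 2.76 at 48 h, the ends set by the CCL 48 h arrays. Of the values of these 2 genes, signs turned only for time contrasts that were not called. GDF15 against CCL 6 h ran from -0.17 to 0.25 at 18 h (-0.13 by median centring), -0.24 to 0.72 at 24 h and -0.22 to 0.90 at 48 h, and against 0 h from -0.059 to 0.38 at 6 h and -0.40 to 0.038 at 48 h. MIR3189 against CCL 6 h ran from -0.58 to 0.16 at 12 h (0.064 by median centring) and -0.11 to 0.65 at 18 h (-0.063), and against 0 h from -0.54 to 0.19 at 48 h and -0.38 to 0.35 at 6 h. This last was 0.014 by quantile normalization, 0.017 by median centring and 0.13 with the replicate block. SSBP4 over the 5 times was -0.015 by median centring and ran from -0.011 to 0.071 without single arrays. Of 18 called genes that the naming rule took from the pathway lists and the neighbours, 16 kept the call whichever array was left out. From each list the rule took called genes with the smallest p, which favours keeping a call, so nothing is read from that count. The 18 include genes above the filter in the CCL arm alone, and the exceptions, which lost the call, were ATF4 and KXD1. TTR and APOA1, of the marker lists, lost it too, as did EIF2AK4, a regulator named after its values were seen. A group of 2 arrays with 1 left out is assumed to vary like the others.

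After subtracting each group's mean, same-numbered arrays of the arms correlated above 0.1 in 9 of 12 pairs (-0.0657 to 0.444). Of the 12, 7 correlated best with their own number, so pairing was not taken as given. With set as a block, genes called numbered 108, 257, 1571, 525 and 903 for CCL minus untreated at 6, 12, 18, 24 and 48 h, 146 for untreated 12 h against 0 h, and 368, 56, 54 and 286 for CCL 12, 18, 24 and 48 h against 6 h. The main counts were 20, 81, 815, 197 and 428, then 15, and 85, 2, 2 and 70. By quantile normalization they were 85, 146, 338, 450 and 810, then 1, and 0, 24, 46 and 288. By median centring they were 81, 134, 219 and 319 at 6 to 24 h, then 4, and 0, 16, 26 and 193. With the compared arrays alone they were 88, 660, 58, 45 and 0, then 407 (1 at 24 h against 0 h), and 371, 0 and 0 for 12, 24 and 48 h against CCL 6 h. With a filter of log2 4 there were 96, 238 and 1 (untreated 12 h, CCL 12 h and CCL 18 h). With no filter there were 1542 and 210 at 18 and 48 h, 217 in untreated cells at 12 h, and 342, 1, 0 and 28 within CCL. Without single arrays the counts ran from 6 to 71, 28 to 123, 24 to 2647, 20 to 383 and 8 to 2106 between the arms, 0 to 62, 0 to 1261 and 0 to 1 in untreated cells at 12, 18 and 24 h, and 0 to 199, 0 to 14, 0 to 111 and 5 to 1273 within CCL. The cause was not tested.

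Over the 5 times, 2 ATF4 targets were lower by quantile normalization or median centring (1 to 2 without single arrays), 1 receptor or protease gene by either (0 to 1), and 2 regulators by quantile normalization and 0 with no filter (0 to 2). With the filter asked of each arm, an alternative chosen after seeing the data, genes called higher were 0 (main 2) for the receptor and proteases and 0 (main 1) for the ligands. The share of all genes called higher was then 13.1%. Of the 8 genes most like GDF15, 5 remained by Spearman's rho and 5 by group means.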

Other observations

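Other microRNA genes inside a tested host gene on the same strand were set beside the GDF15 pair, a comparison chosen after the values were seen. There were 23 such pairs. After subtracting each group's mean, Pearson's r between microRNA and host over the 29 arrays was 0.0805 for MIR3189 with GDF15, against a median of 0.176 (-0.716 to 0.751) for the 23 others, of which 15 were higher. Without that step r was 0.836 for MIR3189 with GDF15 and had a median of 0.276 for the others, but both genes were chosen by their difference between the arms, which fixes a high r over both arms. Of the other pairs MIR2909 with AATF, a regulator of transcription and apoptosis, had the highest such r, 0.723. There CCL minus untreated over the 5 times was 1.09 ± 0.18 (log2, SE) for the microRNA gene and 0.16 ± 0.11 for the host. MIR21 with VMP1, a gene of autophagosome formation, had r = 0.484 and differences of 0.07 ± 0.27 and 0.03 ± 0.09. These correlations are over arrays that share groups and, on deposited values, unequal array medians, so they are descriptions.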
